A study of Rattus norvegicus and Heterocephalus glaber with 6 samples.

Results

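The genes of glycogen synthesis and breakdown described here are 9 of the 22696 gene symbols found in liver RNA tables of naked mole rats and rats. They were taken by symbol, without regard to case: Gys1, Gys2, Gbe1, Ugp2, Pygl, Pygm, Pygb, Phka2 and Ppp1r3b. Polyadenylated liver RNA was sequenced from 3 naked mole rat libraries and 3 rat libraries, all from animals kept for 8 hours at 8% oxygen. The tables used here held 567 symbols for naked mole rat, of which 1 was a member (PYGB), and 22517 for rat, with all 9. Strain, sex and age are not in the labels, every library had the same exposure, and normoxia libraries were not analysed here. No effect of oxygen could therefore be measured, and the species and its genome annotation cannot be told apart.

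Liver stores glucose as glycogen and releases it to the blood. UDP-glucose pyrophosphorylase (Ugp2) makes the activated sugar, glycogen synthase (Gys2 in liver, Gys1 in muscle and most other tissues) adds it to the chain, and the branching enzyme (Gbe1) introduces branch points. Glycogen phosphorylase removes glucose units again and has a liver form (Pygl), a muscle form (Pygm) and a brain form (Pygb). Phosphorylase kinase, with Phka2 as the regulatory alpha subunit of liver, switches phosphorylase on, and Ppp1r3b brings protein phosphatase 1 to glycogen, where it activates the synthase.

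The 250 bases before the annotated start of the 5 synthase and phosphorylase genes are shown because the levels of these forms lie far apart in the same livers. They come from RefSeq on the rat build GRCr8, which had an entry for 8 of the 9 members. Capitals mark matches to 3 short motifs, searched on both strands: ACGTG and GCGTG, the cores bound by hypoxia-inducible factors (HIF), and AGGTCA, a half-site of nuclear receptors. On the other strand the cores read CACGT and CACGC.
Gys2, chr4:177137237-177137486, minus strand: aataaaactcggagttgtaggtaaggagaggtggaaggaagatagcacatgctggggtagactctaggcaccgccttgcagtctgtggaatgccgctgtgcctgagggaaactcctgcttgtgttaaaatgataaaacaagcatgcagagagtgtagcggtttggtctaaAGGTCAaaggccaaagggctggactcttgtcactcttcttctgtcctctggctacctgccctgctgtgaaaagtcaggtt
Gys1, chr1:105051666-105051915, plus strand: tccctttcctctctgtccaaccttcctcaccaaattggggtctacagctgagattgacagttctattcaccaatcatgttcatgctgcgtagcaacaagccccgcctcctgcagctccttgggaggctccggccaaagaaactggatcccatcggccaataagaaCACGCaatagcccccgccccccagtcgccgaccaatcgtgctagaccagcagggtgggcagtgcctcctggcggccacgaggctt
Pygl, chr6:94476220-94476469, minus strand: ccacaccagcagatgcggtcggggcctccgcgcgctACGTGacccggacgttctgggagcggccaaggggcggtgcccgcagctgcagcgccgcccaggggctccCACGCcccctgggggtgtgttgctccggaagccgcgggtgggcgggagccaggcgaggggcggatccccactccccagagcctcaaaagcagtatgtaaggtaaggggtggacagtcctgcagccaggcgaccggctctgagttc
Pygm, chr1:213119555-213119804, plus strand: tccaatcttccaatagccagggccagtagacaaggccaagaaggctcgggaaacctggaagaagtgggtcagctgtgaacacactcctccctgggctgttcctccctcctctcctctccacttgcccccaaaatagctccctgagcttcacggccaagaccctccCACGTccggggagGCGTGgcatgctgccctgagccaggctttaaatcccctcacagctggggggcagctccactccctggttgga
Pygb, chr3:160071891-160072140, plus strand: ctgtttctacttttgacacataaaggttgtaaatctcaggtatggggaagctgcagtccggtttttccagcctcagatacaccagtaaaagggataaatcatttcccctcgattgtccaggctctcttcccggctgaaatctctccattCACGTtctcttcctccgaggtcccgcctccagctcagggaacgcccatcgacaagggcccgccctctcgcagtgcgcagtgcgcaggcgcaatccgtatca
The Gys2 window held AGGTCA, starting 80 bases before the start, and neither HIF core. Pygl held ACGTG at 214 bases and GCGTG, on the other strand, at 145 bases before the start. Pygm also held both cores, Pygb held ACGTG and Gys1 held GCGTG. Among the members' windows not shown, Gbe1 held ACGTG, and Ugp2 and Phka2 held GCGTG. Over 33469 rat windows of 250 bases, ACGTG was present in 16.6%, GCGTG in 25.9% and AGGTCA in 14.1%. TGACG, a half-site of cyclic AMP response elements, and TATAAA were searched as well and matched none of the 8 members' windows, against 18.2% and 12.9% of all windows. Matches of different motifs can share bases, and each motif was counted on its own; in the Pygl and Pygm windows, with 2 matches each, they share none. The motifs were chosen after the sequences had been seen. The Pygl window had 71.2% G and C and the Gys2 window 49.6%, with a median of 51.2% over all windows. A match describes letters and shows no binding.

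Values are FPKM (fragments scaled to transcript length and to the mapped fragments of the library) and summed to between 17543 and 21794 in the naked mole rat tables, which hold few genes, and to between 527133 and 557188 in rat. FPKM carries no read counts, so depth is unknown, and nothing in the labels says that the replicates are separate animals. The spread given below may thus be in part technical. In rat, 7 of 8 hepatocyte markers were present and all 7 were above 100 FPKM (albumin in the 1 library with a value), with Cps1 between 980 and 1114 FPKM. None of these 8 markers was among the naked mole rat symbols, so the tissue label was not checked there. Albumin was missing in 2 rat libraries because of the status HIDATA, which no member carried. The highest rat sum, 557188 in rat 3, includes albumin. Over rows with a value in every library, the rat sums were 531212, 527133 and 531399.

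In rat liver the liver synthase and phosphorylase, Ugp2, Gbe1 and Ppp1r3b had means of 34.1 to 93.8 FPKM, and the other synthase and phosphorylase forms and Phka2 0.271 to 2.45 FPKM. Gys2, the liver synthase, had 75.9, 74.7 and 131 FPKM in rat 1, rat 2 and rat 3. Its mean of 93.8 ± 32.1 FPKM (SD, n = 3) ranked 707 among 22548 rat rows with a value in every library. Rat 3 stood alone at the top, and rat 1 and rat 2 were nearly equal. All 3 Gys2 values lay outside the confidence bounds deposited beside them. Gys1, the form of muscle and most other tissues, had 2.56, 2.75 and 2.05 FPKM, a mean of 2.45 ± 0.363 (SD, n = 3). Gys2 lay 29.7, 27.1 and 63.8 times above Gys1 in the 3 rats, so that Gys2 made up 96.4% to 98.5% of the summed synthase FPKM. The deposited tables place the Gys2 row on chromosome 4 from 179984035 to 180018819 and the Gys1 row on chromosome 1 from 95907457 to 95928150. Their build is not given in the sources used here.

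Ugp2, which supplies UDP-glucose to the synthase, had 80.0, 109 and 35.6 FPKM in rat 1, rat 2 and rat 3 (mean 74.9 ± 37.0, SD, n = 3). Its highest value was 3.06 times its lowest, the widest ratio among the 9 members. The Ugp2 row lies on chromosome 14 from 102072723 to 102113561. Gbe1, the branching enzyme, had 57.2, 78.6 and 43.9 FPKM (mean 59.9 ± 17.5, SD, n = 3), with rat 2 at the top and rat 3 at the bottom as for Ugp2. For Ugp2 and for Gbe1, 2 of 3 values lay outside their bounds. The Gbe1 row is the longest of the members' rat rows, 255064 bp on chromosome 11 from 8720407 to 8975471.

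On the breakdown side, Pygl, the liver phosphorylase, had 51.7, 66.4 and 37.7 FPKM in rat 1, rat 2 and rat 3, a mean of 51.9 ± 14.4 (SD, n = 3). Here too rat 2 was highest and rat 3 lowest. Pygb, the brain form, had 0.854, 0.640 and 0.985 FPKM, a mean of 0.826 ± 0.174 (SD, n = 3). Pygm, the muscle form, had 0.187, 0.294 and 0.331 FPKM, a mean of 0.271 ± 0.0748 (SD, n = 3). Pygl was 38.2 to 104 times above Pygb and 114 to 276 times above Pygm, and held 96.6% to 98.6% of the summed phosphorylase FPKM. The muscle markers Ckm, Mb, Myh4 and Myl1 were listed at 0 in every rat, and the 8 skeletal muscle markers together summed to 1.53 to 1.64 FPKM. In whole liver, fewer cells of a type and less RNA per cell cannot be told apart, and this holds for every level given here. The rows are Pygl on chromosome 6 from 92298338 to 92341347, Pygb on chromosome 3 from 141421420 to 141468094 and Pygm on chromosome 1 from 209166700 to 209181588.

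Of the regulators, Phka2, the liver alpha subunit of phosphorylase kinase, had 1.96, 2.69 and 2.09 FPKM in rat 1, rat 2 and rat 3 (mean 2.25 ± 0.388, SD, n = 3), about the level of Gys1. Ppp1r3b, the phosphatase targeting subunit, had 25.3, 52.6 and 24.3 FPKM (mean 34.1 ± 16.1, SD, n = 3). Rat 2 stood apart for Ppp1r3b, 2.17 times above rat 3, while rat 1 and rat 3 lay close together. The Phka2 row lies on the X chromosome from 55463177 to 55580783 and the Ppp1r3b row on chromosome 16 from 60552430 to 60564789. No member's row overlapped another row of the rat tables.

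**Figure D1:**
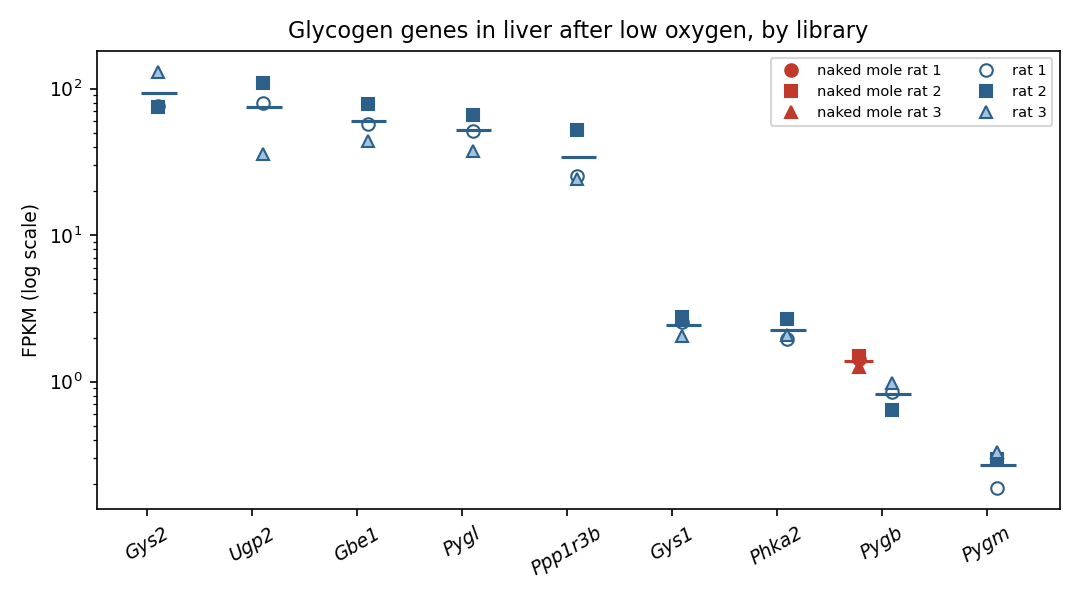
FPKM of each member on a log scale, with genes ordered by their rat mean; red symbols are the 3 naked mole rat libraries (PYGB alone), blue symbols the 3 rat libraries, and short lines the means. Rat means fall into a higher set from Gys2 (93.8) to Ppp1r3b (34.1) and a lower set from Gys1 (2.45) to Pygm (0.271).

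By mean FPKM the members ran in the order Gys2, Ugp2, Gbe1, Pygl, Ppp1r3b, Gys1, Phka2, Pygb and Pygm. Neighbours from Gys2 down to Ppp1r3b had overlapping ranges over the 3 rats, so the order of neighbours is not separated by the spread. The lowest Gys2 value (74.7) did lie above the highest of Pygl (66.4) and of Ppp1r3b (52.6). Within each rat, Gbe1 also lay above Pygl and Pygl above Ppp1r3b. The step from Ppp1r3b to Gys1 was 13.9-fold with no overlap. Gys1 and Phka2 overlapped, Phka2 lay above Pygb in all 3 rats without overlap, and so did Pygb above Pygm. The top place changed with the library: Ugp2 was the highest member in rat 1 and rat 2, and Gys2 in rat 3. Of the 9 members, 5 reached a mean of 10 FPKM, with a median of 34.1 FPKM, against 17.3% of all rat rows and a median of 0.448.

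The 5 members above 10 FPKM differed among the rats more than most rat rows averaging 1 FPKM or more did. Of those rows 39.1% averaged 10 FPKM or more, and no median was taken for rows at the members' own level. On log2(FPKM + 1), the SD over 3 rats was 0.819 for Ugp2, 0.611 for Ppp1r3b, 0.455 for Gys2, 0.414 for Gbe1 and 0.402 for Pygl. The median over the 9994 rat rows averaging 1 FPKM or more was 0.137, and 0.931% of these rows had a larger SD than Ugp2, against 5.94% for Pygl. The 4 low members had SDs between 0.0860 for Pygm and 0.168 for Phka2, but adding 1 compresses differences of genes near or below 1 FPKM. Without the pseudocount, the highest rat was 1.77 times the lowest for Pygm, 1.76 for Pygl and 1.75 for Gys2, so these 3 varied alike in proportion. The ratio was 1.54 for Pygb, 1.37 for Phka2 and 1.34 for Gys1, and its median over the 9994 rows was 1.24. The median SD over the 9 members was 0.402, against 0.156 without rat 2, 0.224 without rat 3 and 0.566 without rat 1.

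**Figure D2:**
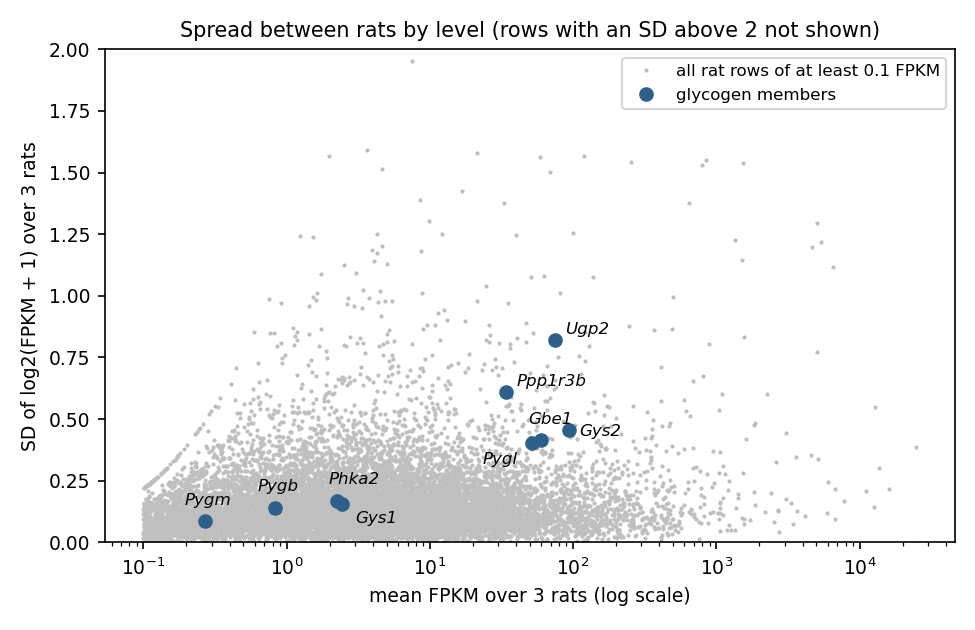
SD of log2(FPKM + 1) over 3 rats against mean FPKM on a log scale; grey points are all rat rows of at least 0.1 FPKM (3 with an SD above 2 lie off the plot), blue points the 9 members. Ugp2 (0.819) and Ppp1r3b (0.611) lie highest among the members, and Gys1, Phka2, Pygb and Pygm lie within the grey band.

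The members did not share one pattern over the rats. Ugp2, Gbe1, Pygl, Ppp1r3b and Gys1 were each highest in rat 2 and lowest in rat 3, which was also true of 19.9% of the 9994 rows averaging 1 FPKM or more. With rat libraries scaled by their median ratio, a setting planned for the levels and applied to this pattern after the data were seen, this held for 4 of the 9, with Gys1 no longer among them, and for 19.4% of all rows. Gys2 and Pygb ran the other way, lowest in rat 2 and highest in rat 3, as did 14.0% of these rows. Pygm was also highest in rat 3, with its lowest value in rat 1, and Phka2 was highest in rat 2 and lowest in rat 1. The ratio of Gys2 to Pygl, synthase over phosphorylase within a library, was therefore 1.47 in rat 1, 1.12 in rat 2 and 3.47 in rat 3. With 3 libraries of one group this is a description with no test.

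Summed marker levels of several cell types also differed among the rats, in more than one order. Hepatocyte markers without albumin summed to 29956, 35952 and 30922 FPKM in rat 1, rat 2 and rat 3, highest in rat 2. Abundant genes dominate such sums. Cps1 was also highest in rat 2 (1054, 1114 and 980), but Hnf4a was highest in rat 1 (136, 120 and 116). The 6 listed smooth muscle or stellate markers, of which 5 were present and none was at 0, summed to 14.2, 12.8 and 28.8 FPKM, highest in rat 3, as Gys2 was. Tagln alone had 9.32, 8.72 and 20.5 FPKM of this. Macrophage or Kupffer markers, 5 of 6 present with Marco at 0, summed to 177, 187 and 235 FPKM. Neutrophil markers, 4 of 4 present, summed to 2.29, 8.25 and 10.3 FPKM. The erythroid markers Hbb and Slc4a1, 2 of 4 listed, summed to 55.0, 359 and 349 FPKM, low in rat 1. Nearly all of this was Hbb (54.4, 357 and 348). T or B cell markers, 4 of 4 present, were likewise lowest in rat 1, at 0.958, 2.72 and 2.60 FPKM. Sinusoidal endothelium markers, 4 of 5 present with none at 0, ran the other way at 51.7, 49.0 and 46.0 FPKM, lowest in rat 3. Cholangiocyte markers, 4 of 4 present, summed to 11.6, 12.8 and 16.6 FPKM, highest in rat 3. The part of these in the members' differences was not tested.

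The genes around the members were taken from 7 lists of 54 genes, 49 of them found in rat; 27 had a mean of 10 FPKM or more (55.1%, against 17.3% of all rat rows). Their median level was 12.4 FPKM, and their median SD over rats, among those with a mean of at least 1, was 0.136. Among genes of the glycogen particle and of its breakdown in lysosomes, 1 of 4 reached 10 FPKM. The 4 include Gaa, listed at 0 on unplaced sequence where 0 of 545 rows had any signal. It also counts among the 49. Stbd1, which tethers glycogen to membranes, had 40.3 ± 1.68 FPKM (SD, n = 3). Nhlrc1, the ubiquitin ligase malin, had 4.31 ± 0.520 and the primer protein glycogenin (Gyg1) 2.62 ± 0.198.

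Of 6 phosphorylase kinase subunit genes, 3 reached 10 FPKM. Calm2 and Calm3, which encode the same calmodulin protein, the delta subunit among many other roles, had means of 76.1 ± 3.18 and 56.0 ± 7.49 FPKM (SD, n = 3). The Calm2 row covers only 1111 bp, so its value may not be that of the whole gene. The catalytic subunit of liver, Phkg2, had 13.4 ± 1.17 FPKM (SD, n = 3), well above the beta subunit Phkb at 2.87 ± 0.567 and Phka2 at 2.25 ± 0.388. Phka1, the muscle alpha subunit, had 0.663, 0.756 and 0.708 FPKM, below Phka2 in each rat.

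Among phosphatase genes, 4 of 7 reached 10 FPKM. The catalytic subunit Ppp1ca had 76.2 ± 4.73 FPKM (SD, n = 3). Ppp1cc, another catalytic subunit, had 33.8, 32.0 and 31.6 FPKM in rat 1, rat 2 and rat 3, with little spread. Ppp1r3c, another targeting subunit, had 79.0, 40.5 and 30.8 FPKM in rat 1, rat 2 and rat 3, a ratio of 2.57 between highest and lowest. It was highest in rat 1, where Ppp1r3b was near its lowest level, but both genes were lowest in rat 3. Ppp1r3d and Ppp1r3e were below 1 FPKM in every rat, and Ppp1r3a, known from striated muscle, was listed at 0. The kinases that act on glycogen enzymes, 8 of 11 above 10 FPKM, were led by Prkab1, a glycogen-binding beta subunit of AMP-activated kinase, at 31.5 ± 4.91 FPKM. The protein kinase A regulatory subunits Prkar2a (31.4 ± 8.19) and Prkar1a (26.4 ± 3.26) followed. The Prkar1a row covers only 255 bp, on the X chromosome, and its value is uncertain as a level of the whole gene. Of the glycogen synthase kinases, named beyond the highest 3 because of their role, Gsk3a had 23.5 ± 1.99 FPKM and Gsk3b 7.90 ± 0.712.

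Of 8 genes listed as hexose phosphate and UDP-glucose enzymes, galactose enzymes among them, 5 reached 10 FPKM. Phosphoglucomutase (Pgm1), which joins glycogen to glycolysis, was steady at 98.6, 101 and 89.4 FPKM in rat 1, rat 2 and rat 3, unlike Ugp2 one step further. The galactose enzymes Galk1 and Galm had 69.3 ± 18.5 and 32.9 ± 8.00 FPKM (SD, n = 3). Of 6 genes of glucose entry and exit, 3 reached 10 FPKM, all of them above 100. Glucose-6-phosphatase (G6pc), the last step of glucose release, had 540, 249 and 437 FPKM, lowest in rat 2. Its transporter partner Slc37a4 had 142 ± 13.0 and the glucose transporter Slc2a2 124 ± 10.9 FPKM (SD, n = 3). Of 7 hormone receptor and receptor substrate genes, 3 reached 10 FPKM: the glucagon receptor Gcgr at 74.1 ± 4.64, the adrenergic receptor Adra1b at 19.3 ± 3.70 and the insulin receptor Insr at 10.9 ± 0.451 FPKM (SD, n = 3).

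**Figure D3:**
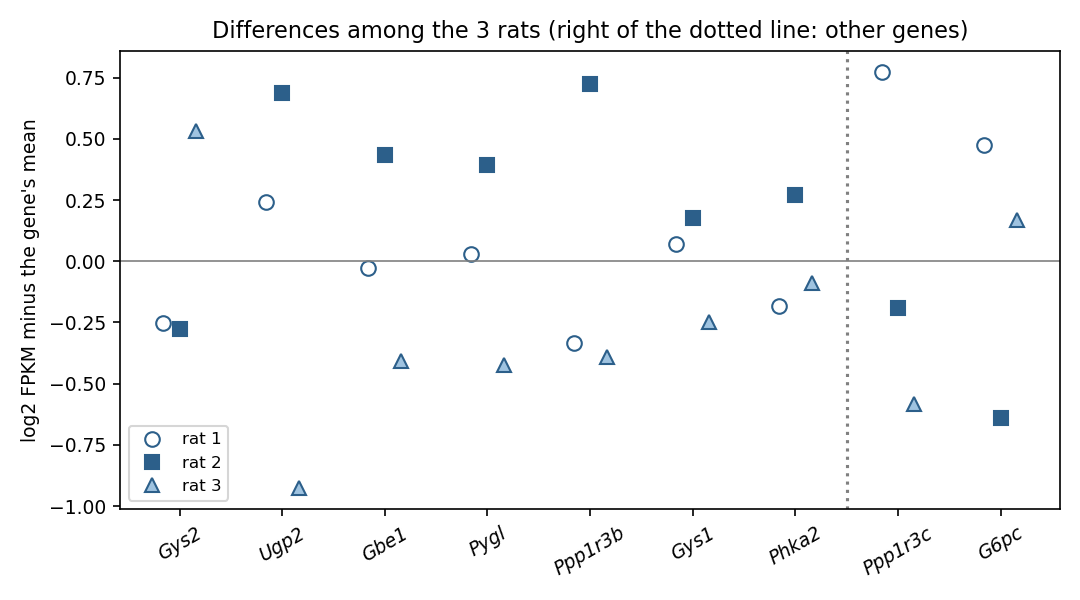
For the 7 members averaging 1 FPKM or more and 2 related genes (right of the dotted line), log2 FPKM in each rat minus the gene's mean over the 3 rats. The related genes are Ppp1r3c and G6pc. Their SDs of log2(FPKM + 1) were 0.685 and 0.575, against a median of 0.136 over listed genes averaging 1 FPKM or more. Rat 2 (filled squares) lies highest and rat 3 (triangles) lowest for Ugp2, Gbe1, Pygl, Ppp1r3b and Gys1, while Gys2 is highest in rat 3 and G6pc lowest in rat 2.

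**Figure D4:**
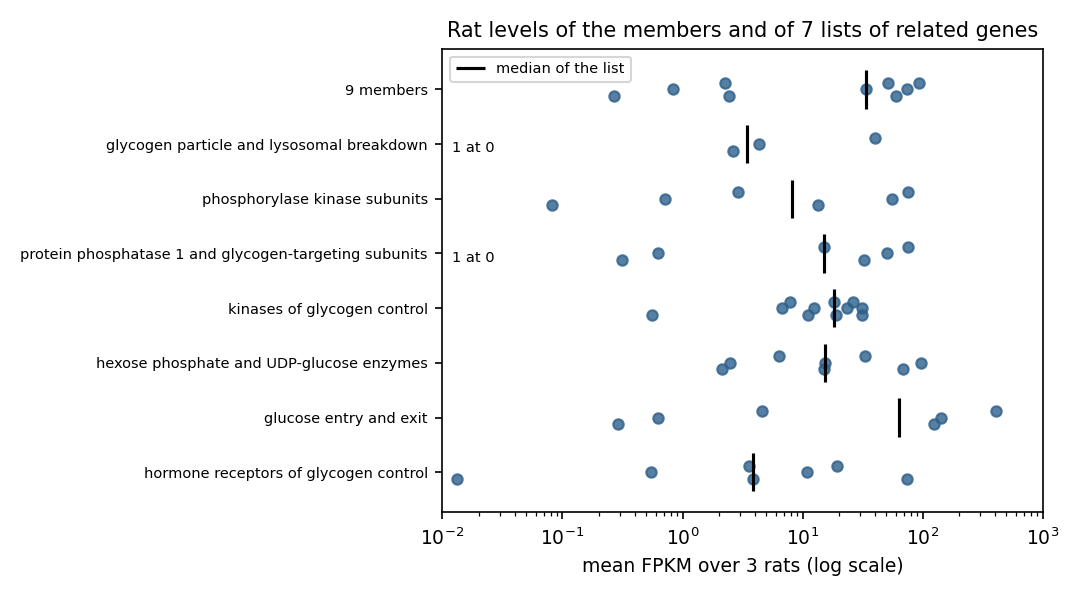
Mean FPKM over 3 rats on a log scale for each gene of the 9 members and of 7 lists of related genes, with a vertical line at each list's median and a note where a gene is listed at 0. The members' median is 34.1 FPKM and that of the lists together 12.4.

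The comparison of species asks which genes differ in level between livers after the same exposure, and among the members only PYGB could enter it. In naked mole rat PYGB had 1.43, 1.49 and 1.25 FPKM, against 0.854, 0.640 and 0.985 FPKM in rat. Every naked mole rat library lay above every rat library. After scaling the libraries by their median ratio over shared symbols, PYGB averaged 1.49 ± 0.185 in naked mole rat and 0.776 ± 0.199 in rat (SD, n = 3 each). The difference, naked mole rat minus rat, was 0.49 ± 0.11 (SE) on log2(scaled FPKM + 1), 1.40-fold on that scale, which understates differences of low genes. The limma adjusted p was 0.00315, but the difference fell short of the log2 difference of 1 that a call requires, so PYGB was not called in either direction. PYGB entered the test through its naked mole rat values alone, since it was below 1 in each rat. Its p and direction therefore depend on that group and are given as description.

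As background, calls toward naked mole rat numbered 94 among 288 tested symbols (32.6%), and calls toward rat 118. The unadjusted limma p was under 0.05 for 259 of the 288, so a low p is common as well. A full separation of the libraries in the direction of PYGB was found for 114 symbols (39.6%), so the separation is common in this comparison. These counts include symbols that passed the filter through naked mole rat alone, such as GAA, which is listed at 0 in rat. The median log2 difference over all tested symbols was -0.40, so PYGB lay 0.89 above it. Scaling each library so that its 388 shared symbols summed to 1000000 gave 169 and 108 calls among 358 tested symbols. It moved that median to 0.77 and gave PYGB a difference of 1.94 (limma adjusted p = 0.000466), which is a call. The naked mole rat PYGB row, on scaffold175326 from 15229 to 1010894, spans 995665 bp, 21.3 times the rat row, and contains the row C20orf3, which had 10.2 ± 0.974 FPKM (SD, n = 3). The part of row extent in the difference was not tested. Within its own table PYGB ranked 292 of 734 rows, and in rat Pygb ranked 10331 of 22548.

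Of the 54 listed genes, 3 were in the naked mole rat tables. GAA, the lysosomal enzyme that degrades glycogen, had 4.29, 4.51 and 3.73 FPKM in naked mole rat, and its rat values are listed as 0. It passed the filter through naked mole rat alone, and its rat row lies on unplaced sequence, on which 0 of 545 rows had any signal, so no difference is given. PHKA1, the muscle alpha subunit of phosphorylase kinase, had 0.767, 0.810 and 1.33 FPKM in naked mole rat, against 0.663, 0.756 and 0.708 FPKM in rat. Below 1 FPKM in all libraries but naked mole rat 3, it did not pass the filter on low values. Scaled so that each library's shared symbols summed to 1000000, PHKA1 was tested and called higher in naked mole rat, as PYGB was. Its log2 difference was 1.58 (limma adjusted p = 0.000326). With no filter its difference was 0.28 (limma adjusted p = 0.0527), which is no call. PPP1R3F, a phosphatase targeting subunit with no rat row of that symbol, had 6.33, 6.51 and 6.88 FPKM in naked mole rat. Its row spans 3283589 bp, more than the PYGB row, and the part of that extent in its level was not tested.

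**Figure D5:**
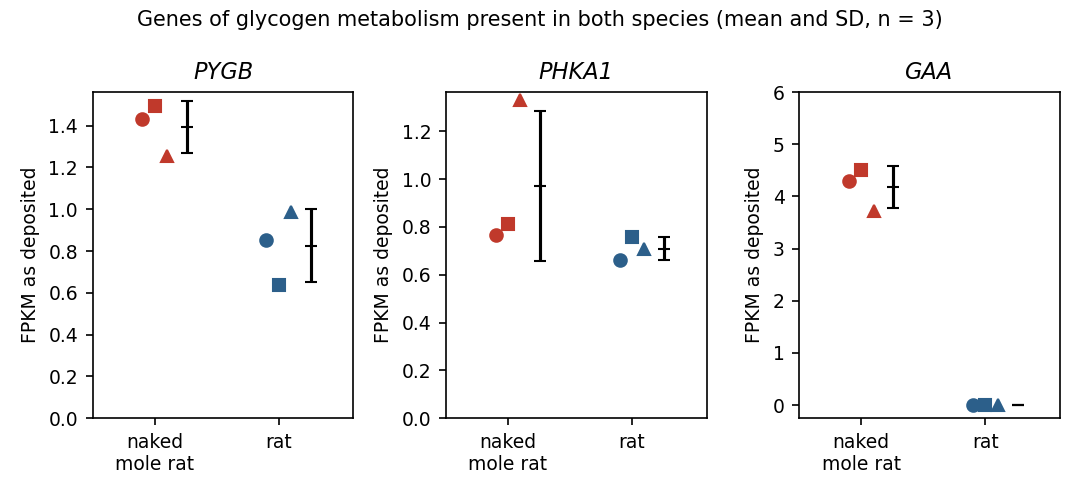
FPKM as deposited for PYGB, PHKA1 and GAA, with the 3 naked mole rat libraries at left and the 3 rat libraries at right in each panel; bars are the mean and SD (n = 3). PYGB averages 1.39 in naked mole rat and 0.826 in rat, and GAA is listed at 0 in rat.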

How the data were processed

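Polyadenylated liver RNA was measured in 6 libraries, 3 per species. The authors deposited FPKM values and their confidence bounds in 1 table per library, per the file headers, whose layout is that of Cufflinks. Picard 1.137, Cufflinks 2.1.1, TopHat2 2.0.9 and Bowtie2 2.1.0 are listed, per the submitters' processing notes; for build and annotation the sources used here give none. Rows with status HIDATA were set missing. The bounds were not used, since 7 of 27 rat member values lay outside their own (all 3 of Gys2, and 2 each of Gbe1 and Ugp2), against 10.3% to 10.9% of rat rows above 0 per library. FPKM divides by length and by library total, so a few abundant genes can shift all others.

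Species were compared over 388 shared symbols on log2(scaled FPKM + 1) with limma 3.58.1 (R 4.3.3), rows of a symbol summed, libraries scaled by the median ratio over symbols above 0 in all 6, symbols of at least 1 in at least 3 libraries tested (288), with Benjamini-Hochberg adjustment over all of them and a trend of variance on level. A call needed a log2 difference of 1 or more with an adjusted p below 0.05. Rat levels, ratios and spreads were computed with pandas 2.3.3 and carry no test. Alternatives were other scalings, pseudocounts, filters and call rules, no trend, a replicate block, and leaving out each library. All members are named, with the 3 highest genes of each list, every listed gene found in both species, others of a list for their role after their values were seen (such as Phkb and Gsk3a) and, for Gys2 and Pygl, the 3 rat rows of most similar level. Members and lists were chosen with earlier results of these data known. Some listed genes are not reported here and were left out of the list counts. Coordinates are printed as deposited, and promoter sequences come from RefSeq (GRCr8).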

Additional observations from a re-analysis of the deposited data

How the results depend on the processing

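PYGB lay higher in naked mole rat under every alternative run. The alternatives reuse the same libraries, which are fully separated for PYGB, so its direction and p remain description. PYGB was called with the shared symbols of each library scaled to a sum of 1000000 (log2 difference 1.94, 1 member called). It was also called with no minimum difference (0.49, 1 member called), and under no other setting. Without a minimum difference, 112 symbols were called toward naked mole rat and 144 toward rat, of 288 tested. The PYGB difference was 0.39 with FPKM as deposited, 0.95 with quantile normalization and 0.88 with a pseudocount of 0.1. It was 0.62 when scaled over symbols at 1 FPKM or more, a setting added after the data were seen. The sum scaling called 169 of 358 tested symbols higher in naked mole rat, against 94 of 288. No pairing by replicate number was seen in the values. Deviations of same-numbered libraries correlated at -0.036, -0.086 and -0.044, and 0 of 3 naked mole rat libraries correlated best with their own number. Such weak correlations cannot tell whether same-numbered libraries were processed together. With the replicate block PYGB was at 0.49 (limma adjusted p = 0.0117) and calls numbered 94 and 118 as before.

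The rat levels given above are FPKM as deposited. The alternatives scaled them over all rat rows with a value in every library, not over shared symbols alone. A sum of 1000000 raised the members' median from 34.1 to 64.4, since deposited FPKM values sum to less than 1000000. The cause lies in the scale. A pseudocount of 1 lowered the log2 ratio of Pygl to Pygb from 5.96 to 4.82 and of Pygl to Pygm from 7.59 to 5.35, by construction for low genes. Leaving out each library in turn gave 0.35 to 0.61 for PYGB between species with 0 members called, 1.34 to 1.46 FPKM for PYGB in naked mole rat, and a rat median of 24.8 to 39.0 FPKM. The log2 ratios ran from 4.83 to 5.44 for Gys2 over Gys1, 5.59 to 6.31 for Pygl over Pygb, 7.32 to 7.96 for Pygl over Pygm and -1.18 to -0.36 for Pygl over Gys2. The median SD ran from 0.156 to 0.566, and 27 listed genes reached 10 FPKM each time. FPKM gives no depth, so the precision of the lowest members, Pygm and Pygb, is unknown.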

Other observations

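The rat rows closest in level to Gys2 and Pygl over the 3 rats were taken by the smallest maximum difference in log2(FPKM + 1), which describes likeness over 3 libraries of one group. For Gys2 these were C1qa, a complement component made by macrophages, within 0.22 at 88.4, 87.4 and 113 FPKM in rat 1, rat 2 and rat 3, then RT1-S3, a histocompatibility gene with near-identical copies (within 0.26), and Tmed9, a cargo receptor of the secretory pathway (within 0.30). All 3 were highest in rat 3, as Gys2 was. For Pygl they were Dao, which oxidises D-amino acids, within 0.15 at 52.7, 73.9 and 34.2 FPKM, then Ethe1, a mitochondrial enzyme of sulfide breakdown (within 0.17), and LOC259244 (within 0.18). These were highest in rat 2 and lowest in rat 3, as Pygl was. The rows were chosen for this likeness, so no test applies.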
